A study of Homo sapiens with 8 samples.

Results

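Genes of drug metabolism, bile acid handling and hepatic transport were followed in 2 human liver cancer cell lines. The set holds 38 genes, listed by name, and a gene was measured through the probe sets of the array that carry its symbol and no other. Of the 38 genes, 33 had such a probe set, out of 18132 genes on the array, and they were covered by 71 of 49395 probe sets. CYP2C18, CYP2C19, CYP2D6, SULT1A1 and CES1 were not analysed here. A gene was tested when its mean log2 signal reached a floor of 6.11, the 50th percentile of all values, in at least 1 group. This was the case for 19 of the 33 genes, and the other 14 lay below the floor in every group.

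The liver clears foreign and endogenous small molecules in steps. Cytochromes P450, which receive electrons from the reductase encoded by POR, oxidise them, esterases hydrolyse them, and UDP-glucuronosyltransferases and sulfotransferases attach polar groups. Other cytochromes P450 turn cholesterol into bile acids, BAAT joins these to glycine or taurine, and membrane carriers move bile acids, bilirubin and drugs from blood to bile. Hepatocyte lines derived from tumours are known to keep these functions in part only.

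The cultures fell into 3 groups, all kept for 48 h. They were Hep3B with the solvent DMSO, Huh7.5.1 with DMSO, and Huh7.5.1 with 10 μM CU27, a compound known here only by its code name, with 2 arrays per group. Hep3B is an established hepatocellular carcinoma line that carries hepatitis B virus sequence, and Huh7.5.1 is a derivative of the hepatocellular carcinoma line Huh-7 selected for growth of hepatitis C virus. The medium was DMEM or MEM with 10% serum, and the labels do not say which line received which. Replicates are called biological in the labels, without a statement of what separated them. Array signals of different probe sets have no common scale, so a level is compared only between groups of the same gene.

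The arrays labelled as Hep3B with CU27 were left out, since each was a weighted difference of the 2 Hep3B DMSO arrays at all 49395 probe sets, within a tolerance of 1e-06. The Hep3B DMSO columns held exactly equal deposited values at 1086 probe sets, among them 3 of the 71 used here, 1 each for CYP2C8, CYP2U1 and CYP7A1, none of which was tested. Arrays of a group correlated with r of 0.991 to 0.994 over probe sets. The 3′ minus 5′ difference of the ACTB control, a measure of RNA integrity, was 1.60 to 2.28 log2 units in Hep3B and 0.94 to 1.21 in Huh7.5.1. All 10 hepatocyte markers checked, among them ALB, TTR and SERPINA1, were above the floor in every group. Of 4 kidney markers measured 0 were above it, and of 5 endothelial markers KDR alone reached it, in Huh7.5.1 with DMSO. Of 5 leukocyte markers 3 reached it in Hep3B and 2, LYZ and CD68, in both Huh7.5.1 groups, while PTPRC and CD3E did not in any group.

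In Huh7.5.1 cells with CU27, a carrier, 3 conjugating enzymes and a pair of cytochromes P450 were lower, and 3 genes of retinoid and bile acid metabolism were higher. Of the 19 tested genes, 6 fell and 3 rose (limma, adjusted p threshold 0.05). Over all 11383 genes tested, 24.7% passed the test, 12.1% downward and 12.6% upward. The median change of the 19 genes was -0.39 on the log2 scale, and that of all tested genes was 0.02. CU27 and DMSO arrays did not overlap for 13 of the 19, against 63.8% of all tested genes. UGT2B7 and CYP3A7 entered the test through Hep3B alone, since both Huh7.5.1 groups lay below the floor. SLCO1B3 and SULT1E1 entered it only through Huh7.5.1 with DMSO, the group where they were high, and CYP2S1 only through Huh7.5.1 with CU27, so the counts given here are not support for a direction of the set. Summed signals of the 10 hepatocyte markers moved in the same comparison, from log2 16.41 and 16.50 in DMSO to 16.11 and 15.82 with CU27, and 6 of the 10 fell with 0 that rose. Their part in the changes below was not tested, and fewer cells of a type and less RNA per cell cannot be told apart in these bulk samples.

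**Figure D1:**
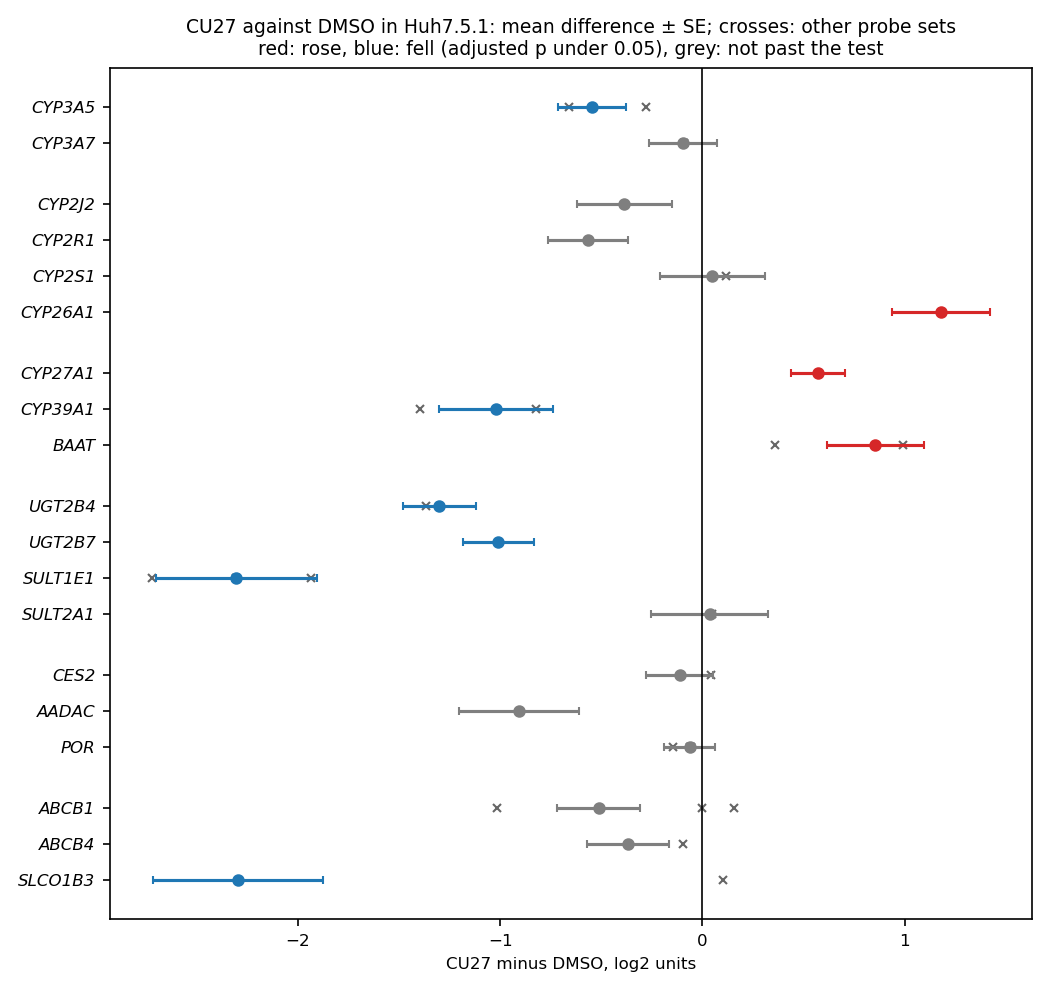
Change of the 19 tested genes with CU27 in Huh7.5.1, as the mean difference on the log2 scale (x axis) per gene (y axis), grouped by role. Circles are the probe set used with its limma standard error, crosses are other probe sets of the gene, red marks a rise, blue a fall and grey no call. SULT1E1 at -2.30 and SLCO1B3 at -2.30 lie farthest to the left and CYP26A1 at 1.18 farthest to the right.

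Among the transporters, SLCO1B3 fell. SLCO1B3 encodes OATP1B3, a carrier of the sinusoidal membrane that takes up bile acids, bilirubin conjugates and drugs from blood. Its log2 signal was 7.53 and 7.27 in DMSO and 5.66 and 4.54 with CU27. Both CU27 arrays lay below both DMSO arrays and below the floor, so SLCO1B3 was at least 2.45-fold lower, with a fitted change of -2.30 ± 0.42 (SE, 2 arrays in each group; limma adjusted p = 0.00592). Its other probe set, below the floor in every group, had a change of 0.10. The related carrier SLCO1B1 was below the floor, with 5.32 and 5.38 in DMSO and 4.98 and 4.51 with CU27.

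ABCB1 and ABCB4, the tested efflux pumps of the set, did not pass the test with CU27. ABCB1, the multidrug pump P-glycoprotein, had signals of 10.21 and 10.32 in DMSO and 9.92 and 9.58 with CU27. The CU27 arrays were the lower ones, but the difference of -0.51 ± 0.21 did not pass (limma adjusted p = 0.103), and its 4 probe sets ran from -1.02 to 0.16. ABCB4, which moves phosphatidylcholine into bile, had a change of -0.37 ± 0.20, with overlapping groups. ABCB11, the bile salt export pump, and SLC10A1, the sodium-dependent bile acid carrier NTCP, lay below the floor in all 3 groups. ABCB11 did not exceed 3.83 on any array, and SLC10A1 did not exceed 4.51.

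Of 4 tested conjugating enzymes 3 fell with CU27, against 12.1% of all tested genes. SULT1E1 entered the test only through Huh7.5.1 with DMSO and UGT2B7 only through Hep3B, so this count gives no direction of the group. SULT1E1, the sulfotransferase that inactivates estrogens, had signals of 6.91 and 6.37 in DMSO and 5.00 and 3.67 with CU27. The groups did not overlap, and both CU27 arrays were under the floor, so SULT1E1 was at least 1.45-fold lower, with a fitted change of -2.30 ± 0.40 (limma adjusted p = 0.00478). All 4 of its probe sets had lower values with CU27, with changes from -2.72 to -1.94. Its CU27 arrays differed more from each other than its DMSO arrays did.

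UGT2B4 and UGT2B7 glucuronidate bile acids, steroids and drugs. UGT2B4 had signals of 8.32 and 8.79 in DMSO and 7.29 and 7.22 with CU27, all above the floor and without overlap. It was 2.47-fold lower, a change of -1.30 ± 0.18 (limma adjusted p = 0.0021), and its other probe set had a change of -1.37. UGT2B7 had 5.90 and 5.66 in DMSO and 4.92 and 4.61 with CU27, a change of -1.01 ± 0.18 (limma adjusted p = 0.0049) for which no fold is given, since all 4 values lay below the floor. UGT2B transcripts are close in sequence, so signals of single members through shared probes are uncertain. SULT2A1, which sulfates bile acids and DHEA, had CU27 values of 9.07 and 8.04 on either side of its DMSO values of 8.61 and 8.44. Its change of 0.04 ± 0.29 did not pass the test, and its sign depended on the array, being -0.48 without CU27 replicate 1 and 0.55 without CU27 replicate 2. The calls of SLCO1B3, SULT1E1, UGT2B4 and UGT2B7 held in each of the 15 alternatives that gave a value. UGT2B4 gave none without probe set types that can bind related transcripts, since both of its probe sets are of such types. SLCO1B3 gave none as the mean of its probe sets, SULT1E1 with the floor at the 60th percentile and UGT2B7 with the 4 Huh7.5.1 arrays alone.

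The 3 conjugating genes that fell lie in the same stretch of a chromosome, which holds 6 of the 8 conjugating genes of the set. Of the 4 conjugating genes tested, SULT2A1 alone lies outside it, so the shared place follows largely from the choice of genes. In the RefSeq order of GRCh38.p14, chromosome 4 carries 11 protein-coding genes from UGT2B15 to SULT1E1, of which 6 belong to the set, and this stretch was chosen after the values were seen. Besides UGT2B7, UGT2B4 and SULT1E1, the only gene of the stretch that was tested was UGT2A3, with a change of 0.22 ± 0.21 that did not pass (limma adjusted p = 0.498). Among those below the floor, UGT2B11 had 4.21 and 4.45 in DMSO and 3.47 and 2.89 with CU27, without overlap. UGT2B15 and UGT2B10 were below the floor as well, UGT2B15 with overlapping groups and UGT2B10 without overlap. UGT2B28, with group means of 2.94 in DMSO and 2.91 with CU27, and SULT1B1, with 3.74 and 3.79, were also below it, and their groups overlapped.

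The promoters of SLCO1B3 and SULT1E1 are shown because these genes had the largest falls of the set. The sequences are from RefSeq, build GRCh38.p14, 250 bases that end just before the annotated start, at chr12:20810455-20810704 on the plus strand and chr4:69860146-69860395 on the minus strand, and are written 5′ to 3′ along the gene. Capitals mark the TATA box motif TATAAA, the hexamer GTTAAT bound by HNF1 factors, and the nuclear receptor hexamer AGGTCA, each searched on both strands.
SLCO1B3: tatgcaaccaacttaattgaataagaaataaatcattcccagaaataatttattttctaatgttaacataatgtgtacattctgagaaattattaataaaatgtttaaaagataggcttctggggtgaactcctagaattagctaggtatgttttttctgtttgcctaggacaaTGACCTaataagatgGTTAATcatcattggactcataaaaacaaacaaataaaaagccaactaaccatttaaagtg
SULT1E1: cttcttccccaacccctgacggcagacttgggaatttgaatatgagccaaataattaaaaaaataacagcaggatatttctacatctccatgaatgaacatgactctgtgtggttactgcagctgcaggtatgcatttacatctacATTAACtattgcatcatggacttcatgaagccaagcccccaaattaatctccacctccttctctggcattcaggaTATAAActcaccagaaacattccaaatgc
SLCO1B3 held GTTAAT from position -61 and AGGTCA on the reverse strand from -76, counted back from the start, with -1 the last base before it. SULT1E1 held TATAAA from -29 and GTTAAT on the reverse strand from -104. The promoter table had 34 entries for 28 of the 38 genes. GTTAAT was in 5 of these entries, or 14.7%, against 6.23% of all 35116 promoters of the same length. AGGTCA was in 12, or 35.3%, against 12.1%, and TATAAA in 12, or 35.3%, against 10.7%. The AGGTCA entries included UGT2B10, UGT2B11, UGT2B15, CYP3A4, CYP3A5 and CYP3A7, related genes that are not independent of each other. TATAAA was counted anywhere in the 250 bases, for UGT2B10 from -244. Such matches describe the letters only, and binding was not measured.

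Among cytochromes P450 of endogenous substrates, CYP26A1 rose. CYP26A1 hydroxylates retinoic acid and so clears it, and its own gene is a textbook target of retinoic acid receptors. Its signal was 7.24 and 6.601 in DMSO and 8.34 and 7.86 with CU27. Both CU27 arrays lay above both DMSO arrays, and the gene was 2.26-fold higher, a change of 1.18 ± 0.24 (limma adjusted p = 0.00958). Without DMSO replicate 2 the change was 0.86 and no longer past the test (limma adjusted p = 0.0794, range 0.00222 to 0.0794 over alternatives). The stretch before the downstream of its 2 annotated starts is shown because it holds the retinoid element.
CYP26A1: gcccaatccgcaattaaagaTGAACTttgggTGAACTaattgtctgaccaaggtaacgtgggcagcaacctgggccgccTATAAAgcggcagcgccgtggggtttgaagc
These 110 bases are at chr10:93073783-93073892, plus strand, GRCh38.p14, from RefSeq. Capitals mark TATAAA and, on the reverse strand from -90 to -74, a direct repeat of AGTTCA with 5 bases between the copies, a retinoic acid receptor motif. This repeat was in 3 of the 35116 promoters and in 1 of the 34 entries of the set. The letters searched are a single fixed form of the motif, the one found at CYP26A1. These counts therefore do not show how common such elements are. Receptor binding there was not measured, and a part of retinoic acid in the rise was not tested. RARB, which encodes a retinoic acid receptor, had a change of 0.19 ± 0.15 with CU27 that did not pass (limma adjusted p = 0.409).

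The other genes of this group did not pass the test with CU27. CYP2R1, a vitamin D hydroxylase, had 7.497 and 7.23 in DMSO and 6.64 and 6.96 with CU27. The groups did not overlap, yet the change of -0.56 ± 0.20 missed the threshold (limma adjusted p = 0.0671), although it was after quantile normalization (limma adjusted p = 0.0409, range 0.0409 to 0.294). CYP2J2, which makes epoxides of arachidonic acid, had a change of -0.39 ± 0.24, and CYP2S1 one of 0.05 ± 0.26, both with overlapping groups.

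Genes of bile acid synthesis and conjugation moved in both directions. CYP27A1, the mitochondrial sterol hydroxylase that begins the acidic pathway, had 9.10 and 9.28 in DMSO and 9.82 and 9.69 with CU27. The groups did not overlap, and CYP27A1 rose by 0.57 ± 0.13 (limma adjusted p = 0.0159). BAAT, which conjugates bile acids to glycine or taurine, had 5.79 and 5.39 in DMSO, below the floor, and 6.52 and 6.36 with CU27. BAAT was at least 1.26-fold higher, with a fitted change of 0.85 ± 0.24 (limma adjusted p = 0.0314), and its 3 probe sets ran from 0.36 to 0.99. CYP39A1, an oxysterol hydroxylase, went the other way. It had 7.43 and 7.86 in DMSO and 6.89 and 6.35 with CU27, without overlap, and was 2.03-fold lower, a change of -1.02 ± 0.28 (limma adjusted p = 0.0292). Its 3 probe sets ran from -1.40 to -0.82.

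These 3 calls were lost when single arrays were left out. Without DMSO replicate 2 the changes were 0.66 for CYP27A1 (limma adjusted p = 0.0584), 0.65 for BAAT (0.199) and -0.81 for CYP39A1 (0.184). CYP27A1 was also not past the test without DMSO replicate 1 (0.48, adjusted p by limma 0.104), BAAT without CU27 replicate 1 (0.77, 0.105) or CU27 replicate 2 (0.94, 0.088), and CYP39A1 without CU27 replicate 2 (-0.75, 0.170). BAAT was not past the test either as the mean of its probe sets (0.74, 0.0604), without probe set types that can bind related transcripts (0.99, 0.124) or with the 4 Huh7.5.1 arrays alone (0.99, 0.149). Over all alternatives the limma adjusted p ran from 0.0128 to 0.104 for CYP27A1, from 0.0251 to 0.199 for BAAT and from 0.0141 to 0.184 for CYP39A1. CYP7A1 and CYP8B1, hydroxylases of the classical pathway, were below the floor in every group. CYP7A1, the rate-limiting cholesterol hydroxylase, ran from 3.42 to 4.19 over the 6 arrays, and CYP8B1, a sterol hydroxylase that sets the ratio of cholic acid, from 3.72 to 4.26. CYP7B1, an oxysterol hydroxylase of the acidic pathway, was at 5.29 and 5.04 in Hep3B and between 3.39 and 3.68 in Huh7.5.1.

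Of the drug-oxidising cytochromes P450, CYP3A5 was the gene past the test with CU27. Its signal was 7.57 and 7.76 in DMSO and 6.98 and 7.26 with CU27, without overlap. CYP3A5 fell by 0.54 on the log2 scale, with an SE of 0.17 (limma adjusted p = 0.0441), and its 3 probe sets ran from -0.66 to -0.28. This call was marginal. It was lost in 10 of 15 alternatives, over a limma adjusted p range of 0.0325 to 0.248, and in each case where an array was left out. The change without an array was -0.45 (DMSO replicate 2), -0.64 (DMSO replicate 1), -0.40 (CU27 replicate 1), -0.69 (CU27 replicate 2) and -0.54 without either Hep3B array. CYP3A7, the fetal form, had a change of -0.10 ± 0.17 with overlapping groups. CYP3A4, the main adult drug oxidase of the liver, was below the floor on all 4 of its probe sets, and the one used did not exceed 4.45.

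The hydrolases and the reductase did not pass the test with CU27. AADAC, an arylacetamide deacetylase of the endoplasmic reticulum, had 10.37 and 10.55 in DMSO and 10.02 and 9.09 with CU27. The CU27 arrays were both lower and stood apart from each other, and the change was -0.91 ± 0.30 (limma adjusted p = 0.0543). The value rested on single arrays, at -0.44 without CU27 replicate 2 (limma adjusted p = 0.287) and at -1.37 without CU27 replicate 1 (0.00878, range 0.00878 to 0.287). In the latter case it was past the test, as it was with the arrays centred on their medians (0.0429), after quantile normalization (0.048) with the floor at the 60th percentile (0.0449) and with the replicate number as a block (0.0418). CES2, a carboxylesterase, had a change of -0.11 ± 0.16 and POR one of -0.06 ± 0.13. The 4 probe sets of POR ran from -0.15 to -0.06.

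**Figure D2:**
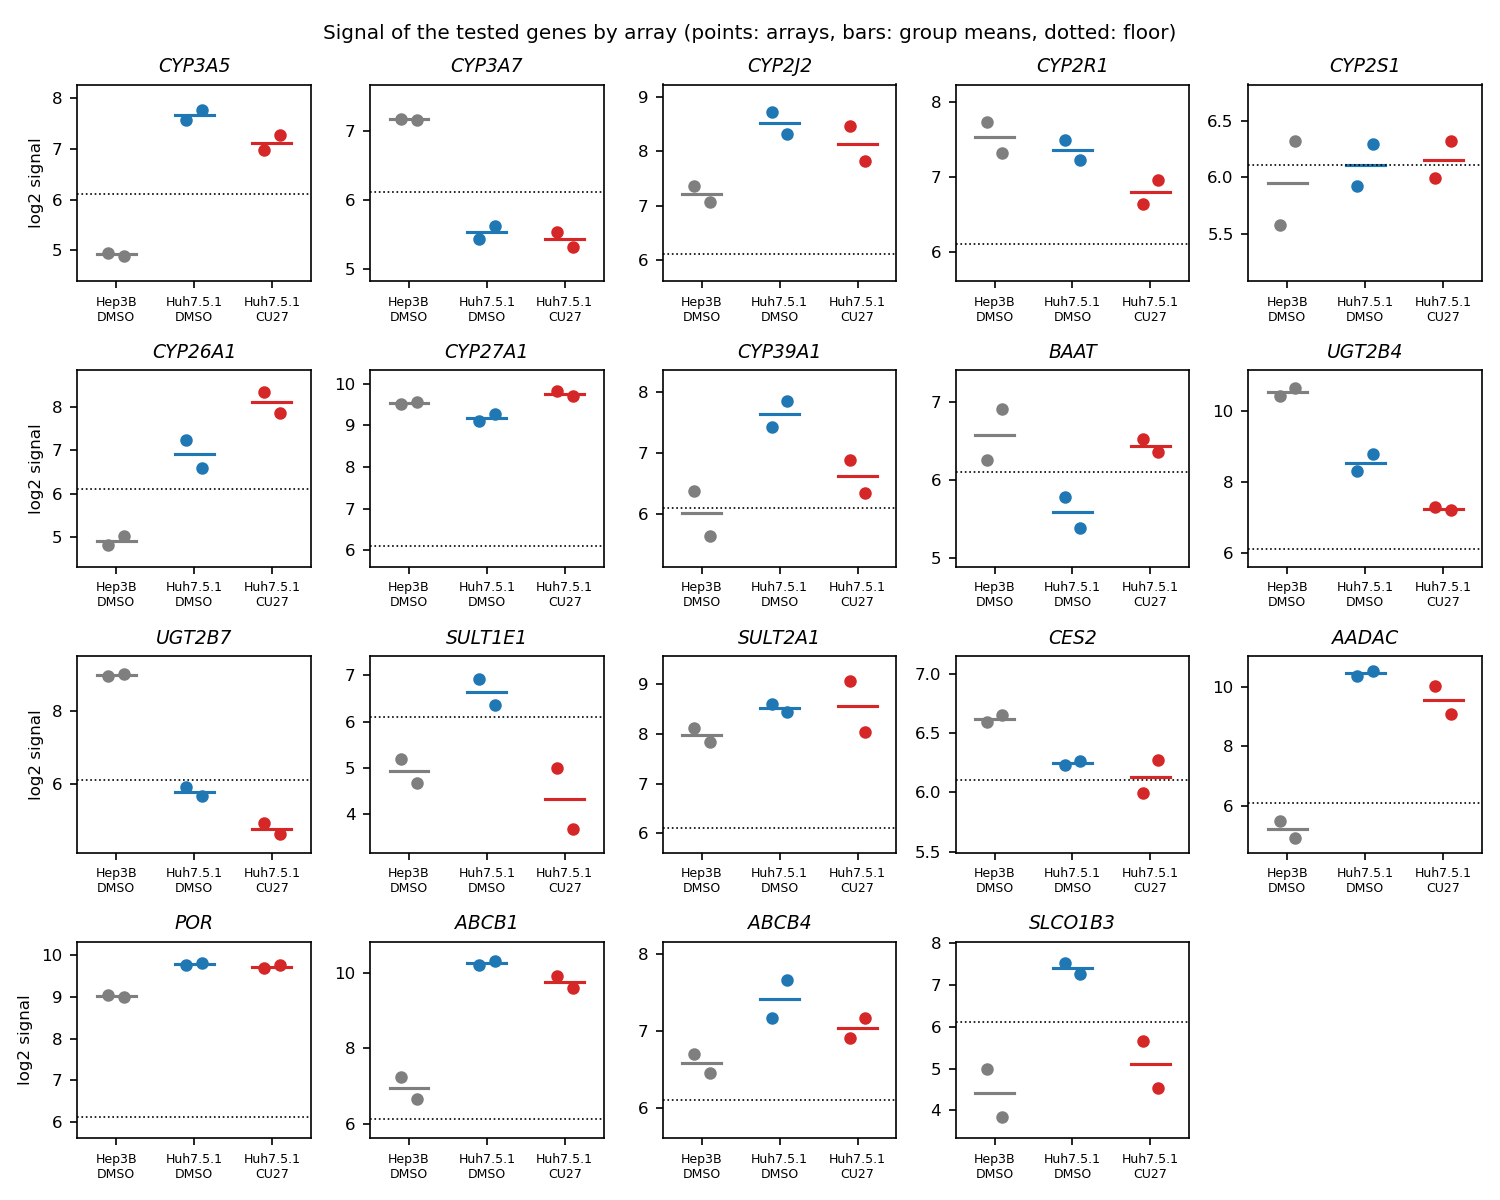
Log2 signal (y axis) of each of the 19 tested genes on the 6 arrays, in panels by gene, with the group on the x axis. Points are arrays, bars are means of the 2 arrays of a group, and the dotted line is the floor of 6.11. SLCO1B3 and SULT1E1 are above the floor only in Huh7.5.1 with DMSO, and UGT2B7 and CYP3A7 only in Hep3B.

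The untreated lines differed in most of these genes. Huh7.5.1 had the higher signal of AADAC, CYP3A5, CYP26A1 and the tested transporters, and Hep3B that of UGT2B4, UGT2B7, CYP3A7 and BAAT. On the deposited scale 10 of the 19 tested genes were higher in Huh7.5.1 and 5 lower (limma, adjusted p threshold 0.05). AADAC, CYP3A5, CYP26A1, CYP39A1, SLCO1B3 and SULT1E1 entered the test only through Huh7.5.1, where they were high. UGT2B7 and CYP3A7 entered it only through Hep3B, so these counts are not support for a direction of the set either. Among all tested genes 64% passed this test, 41% higher and 22.9% lower, so a call by itself sets these genes little apart. The arrays of the lines did not overlap for 17 of the 19 genes, against 84.8% of all tested genes. The array medians of the lines differed, and centring each array on its median moved every difference by -0.42, as the plot of differences between lines shows with diamonds. Folds given below as at least a value hold on the deposited scale only and are not bounds after centring. After centring, 9 genes were higher and 7 lower, against 23.2% and 40.8% of all genes. The ACTB 3′ minus 5′ difference given above also separates the lines, and its part was not tested.

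**Figure D3:**
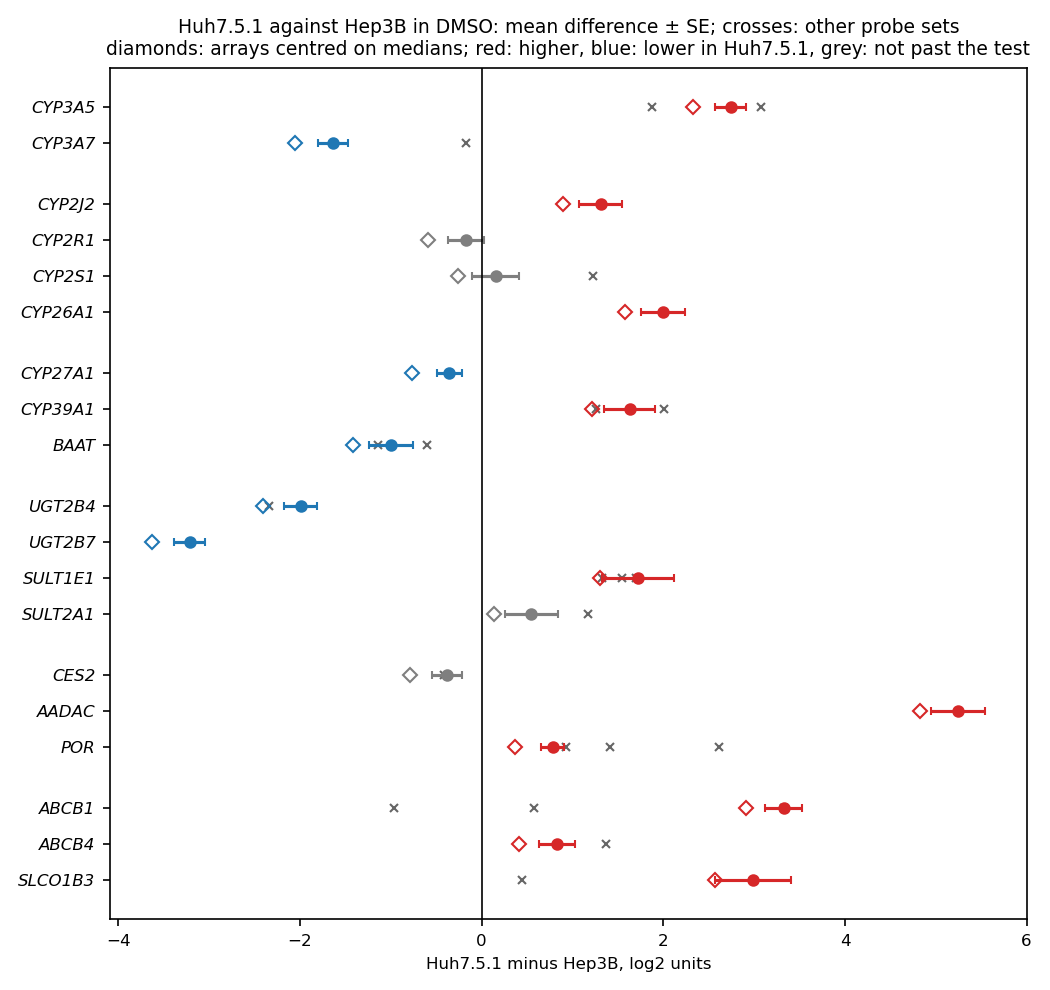
Difference between Huh7.5.1 and Hep3B in DMSO on the log2 scale (x axis) for the 19 tested genes (y axis), grouped by role. Circles with limma standard errors are the deposited scale, diamonds are values with arrays centred on their medians, crosses are other probe sets, and colours give the call on the deposited scale. AADAC at 5.25 is farthest to the right and UGT2B7 at -3.21 farthest to the left.

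All 3 tested transporters were higher in Huh7.5.1. ABCB1 had signals of 7.23 and 6.65 in Hep3B and 10.21 and 10.32 in Huh7.5.1, a difference of 3.33 ± 0.21 (limma adjusted p = 2.25e-06), or 2.91 after centring. The lines were well separated by this probe set, but the 4 probe sets of ABCB1 ran from -0.97 to 3.33 and 1 had the opposite sign. SLCO1B3 had 5.00 and 3.83 in Hep3B, below the floor, and was at least 2.45-fold higher in Huh7.5.1, a fitted difference of 2.98 ± 0.42 (limma adjusted p = 0.000271), or 2.57 after centring. ABCB4 had 6.70 and 6.46 in Hep3B against 7.16 and 7.66, a difference of 0.83 ± 0.20 (limma adjusted p = 0.00627). Its call was lost after centring, at 0.41 (limma adjusted p = 0.107, range 0.000457 to 0.107), without Hep3B replicate 3, at 0.71 (0.0524), and without Huh7.5.1 DMSO replicate 2, at 0.58 (0.0621).

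AADAC showed the widest gap between the lines. It had 5.50 and 4.92 in Hep3B, below the floor, and 10.37 and 10.55 in Huh7.5.1. The gene was at least 20.4-fold higher in Huh7.5.1, a fitted difference of 5.25 ± 0.30 (limma adjusted p = 1.3e-06), or 4.83 after centring. POR had 9.03 and 8.99 in Hep3B and 9.76 and 9.82 in Huh7.5.1, a difference of 0.78 ± 0.13 (limma adjusted p = 0.000596), or 0.36 after centring. All 4 POR probe sets had the same sign, over a wide range of 0.78 to 2.61. CES2 had a difference of -0.38 ± 0.16 that did not pass (limma adjusted p = 0.0721), but it passed after centring at -0.79 (limma adjusted p = 0.00243, range 0.00243 to 0.21).

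The 2 tested genes of the CYP3A family were distributed in opposite ways. CYP3A5 had 4.95 and 4.90 in Hep3B, below the floor, and 7.57 and 7.76 in Huh7.5.1, which made it at least 2.94-fold higher there, with a fitted difference of 2.74 ± 0.17 (limma adjusted p = 2.08e-06). CYP3A7 had 7.17 and 7.16 in Hep3B and 5.43 and 5.62 in Huh7.5.1, below the floor, which made it at least 2.08-fold lower there, with a fitted difference of -1.64 ± 0.17 (limma adjusted p = 4.15e-05). After centring the differences were 2.32 and -2.05. The 3 probe sets of CYP3A5 ran from 1.87 to 3.07, while the other probe set of CYP3A7, below the floor, was at -0.17. CYP3A transcripts are close in sequence, and both probe sets of CYP3A7 are of types that can bind related transcripts.

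The promoters of CYP3A5 and CYP3A7 are shown side by side because these related genes differed in opposite directions. Both are 250 bases that end just before the start, from RefSeq, GRCh38.p14, minus strand, at chr7:99679997-99680246 for CYP3A5 and chr7:99735197-99735446 for CYP3A7, with capitals for the same 3 hexamers.
CYP3A5: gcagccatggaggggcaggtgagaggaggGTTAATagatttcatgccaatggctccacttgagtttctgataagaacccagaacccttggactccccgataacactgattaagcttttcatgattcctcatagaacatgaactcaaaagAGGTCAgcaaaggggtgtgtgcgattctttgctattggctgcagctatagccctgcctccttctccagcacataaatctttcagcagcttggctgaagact
CYP3A7: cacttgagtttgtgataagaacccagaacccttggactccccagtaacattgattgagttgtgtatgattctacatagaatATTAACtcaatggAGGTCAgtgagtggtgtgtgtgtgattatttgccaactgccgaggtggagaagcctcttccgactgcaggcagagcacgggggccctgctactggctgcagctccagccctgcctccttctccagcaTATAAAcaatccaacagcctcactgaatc
CYP3A5 held AGGTCA from -101 and GTTAAT from -221. CYP3A7 held TATAAA from -29, AGGTCA from -156 and GTTAAT on the reverse strand from -169. TATAAA was not among the letters of the CYP3A5 window. Nothing follows from these matches about which factor acts in either line.

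Of the 4 tested cytochromes P450 of endogenous substrates, CYP26A1 and CYP2J2 were higher in Huh7.5.1. CYP26A1 had 4.82 and 5.02 in Hep3B, below the floor, against 7.24 and 6.601 in Huh7.5.1, at least 1.75-fold higher, with a fitted difference of 2.00 ± 0.24 (limma adjusted p = 0.000116). CYP2J2 had 7.36 and 7.07 against 8.73 and 8.32, a difference of 1.31 ± 0.24 (limma adjusted p = 0.00114). The lines did not overlap in either gene, and after centring the differences were 1.58 and 0.90. CYP2S1 had a difference of 0.16 ± 0.26, which was -0.26 after centring. CYP2R1 had one of -0.17 ± 0.20 that did not pass, while it passed after centring at -0.59 (limma adjusted p = 0.0231, range 0.0231 to 0.914).

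The conjugating enzymes differed between the lines in both directions. UGT2B7 had 8.97 and 9.01 in Hep3B and lay below the floor in Huh7.5.1, at least 7.38-fold lower there, with a fitted difference of -3.21 ± 0.18 (limma adjusted p = 1.04e-06). UGT2B4 had 10.43 and 10.66 in Hep3B against 8.32 and 8.79, and was 3.98-fold lower in Huh7.5.1 (limma adjusted p = 2.07e-05). After centring the differences were -3.63 for UGT2B7 and -2.41 for UGT2B4. SULT1E1 went the other way, with 5.18 and 4.66 in Hep3B, below the floor, and was at least 1.45-fold higher in Huh7.5.1, with a fitted difference of 1.72 ± 0.40 (limma adjusted p = 0.00469), or 1.30 after centring. Its call was lost without Hep3B replicate 3, at 1.46 (limma adjusted p = 0.0507, range 0.000706 to 0.0507). UGT2B10, UGT2B11 and UGT2B15, below the floor in all groups and not tested, had higher values in Huh7.5.1 than in Hep3B without overlap, with group means of 3.41 against 2.95, 4.33 against 2.85 and 5.22 against 4.68. Of all tested genes, 84.8% did not overlap either. The differences of 0.46 for UGT2B10 and 0.53 for UGT2B15 were near the shift of 0.42 made by centring. Another UGT2B15 probe set overlapped, with 4.05 and 4.45 in Hep3B and 4.71 and 4.29 in Huh7.5.1, and its remaining one did not. SULT2A1 had a difference of 0.55 ± 0.29 that did not pass the test (limma adjusted p = 0.127). It passed with the 4 DMSO arrays alone (limma adjusted p = 0.0153) and as the mean of its probe sets (0.0222, range 0.0153 to 0.697 over alternatives). Its other probe set, above the floor in every group, differed by 1.17 and passed when every probe set was tested separately (limma adjusted p = 0.00637).

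In the bile acid group, CYP39A1 was higher in Huh7.5.1 and BAAT and CYP27A1 were lower. CYP39A1 had 6.39 and 5.64 in Hep3B, with a mean below the floor. On the deposited scale it was at least 2.90-fold higher in Huh7.5.1, with a fitted difference of 1.63 ± 0.28 (limma adjusted p = 0.000903). After centring the difference was 1.21 on the log2 scale, which is smaller than that bound. BAAT had 6.26 and 6.91 in Hep3B and was at least 1.39-fold lower in Huh7.5.1, with a fitted difference of -0.998 ± 0.24 (limma adjusted p = 0.00562), or -1.41 after centring. Without the probe set types that can bind related transcripts, its remaining probe set had -0.61 and did not pass (limma adjusted p = 0.234, range 0.000511 to 0.234). CYP27A1 had 9.52 and 9.56 in Hep3B, a difference of -0.35 ± 0.13 (limma adjusted p = 0.0435), or -0.77 after centring. Its call was lost when any of the 4 DMSO arrays was left out, with differences from -0.44 to -0.27 and a limma adjusted p range of 0.000888 to 0.229 over all alternatives. The comparisons of the lines and of CU27 share the Huh7.5.1 DMSO arrays, so agreement or opposition between them is not an independent result.

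The remaining genes below the floor were CYP2B6, CYP2C8, CYP2E1 and CYP2U1. CYP2B6 and CYP2C8 are drug oxidases, CYP2E1 oxidises ethanol and small solvents, and CYP2U1 hydroxylates fatty acids. Over the 6 arrays CYP2B6 ran from 3.97 to 4.78, CYP2C8 from 4.12 to 4.95, CYP2E1 from 3.50 to 5.00 and CYP2U1 from 4.60 to 5.80. The floor is a percentile of the signals and not a detection limit, so these values do not show that the transcripts were absent.

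Other genes of the same functions passed the test at shares that varied by list. Of 33 other oxidation, reduction and hydrolysis genes tested, 6 rose and 4 fell with CU27, with CYP1B1 at 2.97 ± 0.22, the retinoid hydroxylase CYP26B1 at -1.25 ± 0.17 and the alcohol dehydrogenase ADH6 at -1.44 ± 0.20. CYP26B1 thus had a change of the opposite sign to CYP26A1. ADH6 lay below the floor with CU27 and was at least 1.17-fold lower. Of 12 other conjugation genes, 2 rose and 1 fell, namely the sulfotransferase SULT1C2 at 1.37 ± 0.32, UGP2, which makes UDP-glucose, at 0.33 ± 0.10 and SULT1C4 at -1.05 ± 0.21. Of 10 other genes of bile acid synthesis, 0 rose and 4 fell, with the steroid reductase AKR1D1 at -1.75 ± 0.33, the ferredoxin FDX1, which feeds electrons to CYP27A1, at -0.75 ± 0.14 and the racemase AMACR at -0.85 ± 0.17. The medians of these 3 lists were -0.03, 0.07 and -0.22.

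Among 17 other hepatic transport genes, 2 rose and 3 fell with CU27. The efflux pump ABCC4 was at -1.02 ± 0.16, the efflux pump ABCG2 at 1.01 ± 0.18 and the carrier SLCO4C1 at -1.77 ± 0.36. SLCO4C1 entered the test only through Huh7.5.1 with DMSO, the group where it was high, and was at least 1.86-fold lower with CU27. Of 20 regulators of these genes, 3 rose and 5 fell, with the liver factor CEBPA at -1.21 ± 0.11, the bile acid hormone FGF19 at -1.52 ± 0.20 and NR1I3, the xenobiotic receptor CAR, at -1.21 ± 0.20. NR1I3 lay below the floor in both Huh7.5.1 groups. All genes named in this and the preceding paragraph passed limma at an adjusted p of 0.0431 or less, and the list medians were 0.03 for transport and -0.11 for regulators.

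Between the lines on the deposited scale, where 41% of all genes were higher in Huh7.5.1 and 22.9% lower, the same lists had 16 of 33 higher and 8 lower for oxidation and hydrolysis, 6 of 12 and 3 for conjugation, 5 of 10 and 2 for bile acid synthesis, 9 of 17 and 6 for transport, and 8 of 20 and 8 for regulators. After centring, where the shares of all genes were 23.2% and 40.8%, the counts of higher and lower genes were 12 and 10, 5 and 6, 4 and 3, 8 and 7, and 3 and 11 in the same order. Of 7 enterocyte markers, 1 was above the floor in Hep3B and 4 in Huh7.5.1 with DMSO, with summed log2 signals of 10.96 to 11.27 and 12.10 to 12.12, and with CU27 11.79 to 12.31. FABP2, LCT and CDX1 among them were below the floor throughout. Of 6 biliary markers 3 were above the floor in each group, with sums of 13.25 to 13.42 in Hep3B, 12.40 to 12.70 in Huh7.5.1 with DMSO and 11.85 to 12.21 with CU27. The 5 leukocyte markers had sums of 8.77 to 9.11 in Hep3B, 11.90 to 11.94 in Huh7.5.1 with DMSO and 11.14 to 11.69 with CU27. Among them LYZ had group means of 7.72, 11.84 and 11.01 in the same order, and CD68 rose with CU27 by 2.25 ± 0.20 (limma adjusted p = 0.000394). The part of these markers in the differences between lines or with CU27 was not tested.

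**Figure D4:**
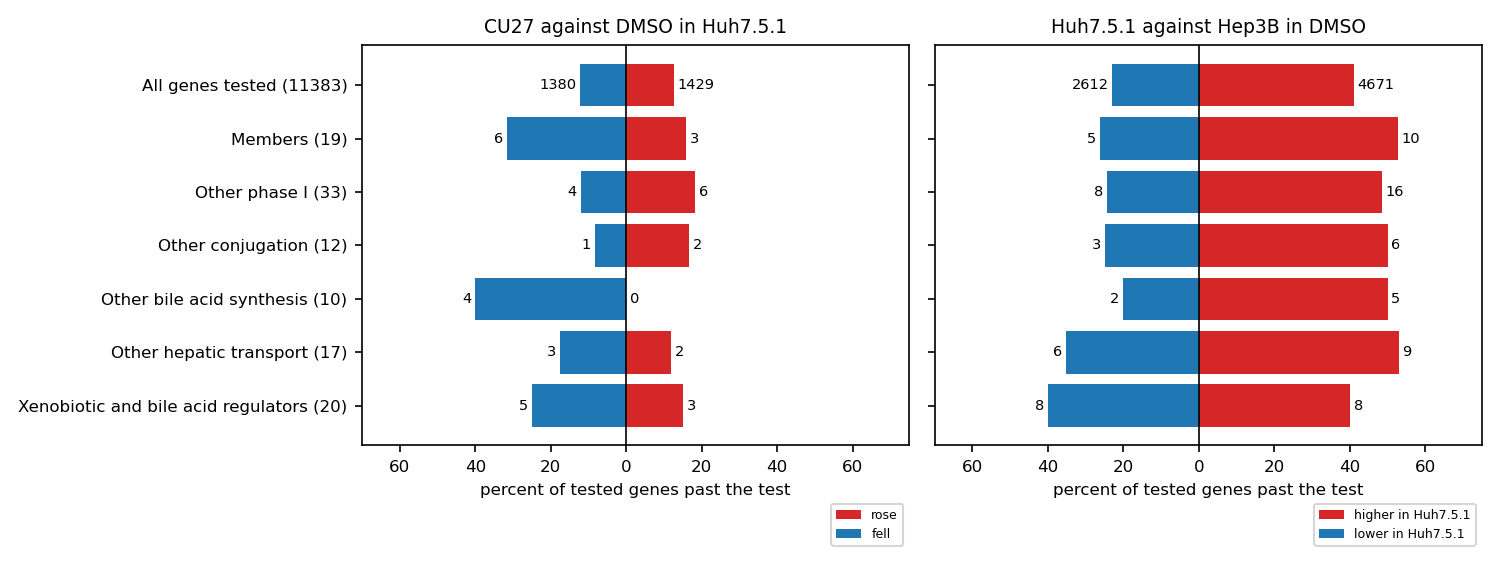
Share of tested genes past the limma test (x axis, percent) in each list (y axis, number tested in parentheses), with CU27 in Huh7.5.1 on the left and between the lines in DMSO on the right. Red bars are higher and blue bars lower, with the number of genes at the bar ends. The set itself, marked as members, has 6 of 19 lower and 3 higher with CU27, against 12.1% and 12.6% of all genes.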

How the data were processed

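Expression was measured on 1 Affymetrix 3′ array per sample. The deposited values were signals per probe set, taken as log2 from their range, since the labels do not state the scale. MAS5 is named, without a version, in the submitters' processing notes. The scaling between arrays that the authors used is unknown here, and so is any centring between lines. Array medians were 5.85 and 5.82 for Hep3B. They were 6.27 and 6.23 for the DMSO arrays of Huh7.5.1 and 6.26 and 6.25 for its CU27 arrays. The number of arrays limits the precision.

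Probe sets with 1 symbol in the platform annotation numbered 44988, with several 1832 and with none 2473, and 102 were controls. For each gene the probe set of highest mean signal was used. The fit was made in limma 3.58.1 under R 4.3.3 (lmFit, contrasts, eBayes with an intensity trend) over 6 arrays, with 3 residual degrees of freedom. Tests were two-sided, with Benjamini-Hochberg adjustment over all 11383 tested genes. The spread was pooled over the 3 groups and moderated over all tested genes, with 5.87 prior degrees of freedom. Errors are standard errors on this basis, and p-values measure only the spread between these arrays, moderated in this way. The procedure was tested on simulated data. Fold bounds set a group mean under the floor equal to the floor, on the deposited scale. The genes and lists were chosen with earlier results of these data known, and all genes of the set are accounted for. Of other lists, up to 3 genes with the smallest p past the test were named. RARB beside CYP26A1 and the chromosome neighbours of the UGT2B genes were named in addition. Alternatives were other scalings between arrays, another floor or none, other choices of probe set, a fit without the trend, fits on the arrays compared alone, the replicate number as a block, and each array left out in turn.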

Additional observations from a re-analysis of the deposited data

How the results depend on the processing

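Over the 19 tested genes, 288 refits of the CU27 comparison kept the call in 261, lost it in 21 and gained it in 6. The 273 refits between lines kept it in 253, lost it in 10 and gained it in 10, and no called value changed sign in either comparison. Of the genes called with CU27, 4 of 9 were called in every alternative that gave a value for the gene, and between the lines 11 of 15. When each array was left out in turn, between 0 and 3 genes of the set rose with CU27 and between 4 and 6 fell, with 457 to 1634 of all genes higher and 430 to 1338 lower. The 0 was reached without Huh7.5.1 DMSO replicate 2. Between lines the ranges were 8 to 11 higher and 4 to 5 lower in the set, and 3782 to 4827 higher and 1989 to 2780 lower over all genes.

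Testing every probe set separately gave 2679 higher and 2887 lower with CU27, and 11451 higher and 4963 lower between lines, since more features were tested. Median centring gave 2648 higher and 4659 lower between lines, and quantile normalization 3118 higher and 4006 lower. Without the filter on dim genes, 7517 of all genes were higher between lines, and in the set 18 were higher and 8 lower, since all 33 measured genes were then tested. Without probe sets that can bind related transcripts, 2 genes of the set were lower in Huh7.5.1. The mean of all probe sets of a gene gave 4 falls with CU27.

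The labels do not say what arrays numbered alike in the Huh7.5.1 groups shared. Deviations of these arrays from the group means correlated with r = 0.179 over 11383 genes. With the replicate number as a block, 3 genes of the set rose and 7 fell, with AADAC gained at a limma adjusted p of 0.0418, and 1612 of all genes were higher and 1570 lower. No block was possible between the lines, whose numbers overlap in 1 only. With 2 arrays in each group and 3 residual degrees of freedom, small changes of dim genes could not be resolved.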
